A study of Homo sapiens with 8 samples.

Results

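FBXW7 knockout (KO) cells were compared with wild-type (WT) cells after recovery from heat shock. The comparison takes the 2 libraries labelled KO recovery and the 2 labelled WT recovery, 4 of the 8 RNA-seq libraries of the series, and all genes; no KO library was paired with a WT library. Both groups are HCT116 cells, a human colon cancer line, grown as attached cultures. Cells of both lines were heated at 42 °C for 1 h and then kept at 37 °C for 2 h; the protocol text is the same for all libraries, and their titles tell recovery from heat shock. The other 4 libraries, 2 per line, are titled heat shock and show which line differences those cells also had. They also entered the gene filter, the scaling and the estimate of the spread behind the recovery test. Unheated cells were not analysed here. The sources used here do not say how FBXW7 was knocked out or whether the KO line is 1 clone or several. The series design text calls the 2 libraries of a group biological replicates, but nothing says that they came from separately grown cultures, and the spread that p-values measure may therefore be technical.

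FBXW7 is the F-box protein that brings phosphorylated substrates to the SCF ubiquitin ligase, built on the scaffold CUL1 and the adaptor SKP1. Its known substrates are short-lived regulators of growth, among them cyclin E, MYC, JUN and the NOTCH receptors, and HSF1, the transcription factor that switches on chaperone genes when proteins misfold. After heat is withdrawn the chaperones bind and shut off HSF1, and the transcripts of the heat shock response decay. FBXW7 acts on proteins, so the level of a substrate's transcript is not a readout of its activity.

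Total counts were 15507896 and 15654696 in the WT recovery libraries and 24531569 and 27187797 in the KO recovery libraries, and 19979779 to 34387618 in the heat shock libraries. Reads were not tagged with molecular identifiers, and intervals given for counts therefore cover counting error only. Count columns were assigned to recovery by the name order of each deposited comparison, since no column name states it. The authors' log2 fold change is that of the first count column over the second. That holds whichever library comes first, so it does not check the assignment. The KO recovery libraries lay nearer to both heat shock groups than to WT recovery. The root mean square log2 difference between group means was 0.722 between KO and WT recovery, 0.4605 between KO recovery and KO heat shock and 0.447 between KO recovery and WT heat shock, and replicates differed by 0.160 to 0.250. Over coding genes alone these differences between groups were 0.696, 0.437 and 0.467, in the same order. Which heat shock group lay nearer to KO recovery therefore depended on the genes used. Of 10 markers of colon epithelium, 8 were measured and 6 were at 10 CPM (counts per 1000000 on library sizes scaled by edgeR's TMM factors) or more in all 4 recovery libraries; CDX1 and CEACAM5 were at 0. Their summed level was 2245 to 2304 CPM in WT and 2311 to 2420.0 CPM in KO recovery. Of 12 markers of blood, immune and endothelial cells, 2 were measured and neither passed the test: CD68 was at 18.9 and 17.4 CPM in WT and 21.2 and 16.9 CPM in KO recovery, and KDR was at 0.547 and 0.415 CPM and 0.00 and 0.343 CPM. Without KO recovery replicate 2, where the KO library left has 0 counts, KDR passed (adjusted p = 0.0185). The summed level of the 8 blood and immune markers was 17.6 to 19.2 CPM in WT and 17.5 to 22.05 CPM in KO, with CD3E at 0. That of the 4 endothelial markers was 0.712 to 0.729 CPM and 0.134 to 0.761 CPM, with CDH5 and PECAM1 at 0. That of 10 mesenchymal markers was 37.7 to 40.1 CPM in WT and 49.5 to 50.7 CPM in KO, with COL1A2 and ZEB2 at 0; the part of such cells in the results was not tested.

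Of 17471 genes tested, 5562 (31.8%) were higher and 5464 (31.3%) lower in KO at recovery, at an adjusted p under 0.05 in edgeR's quasi-likelihood test. This is the background for each count below: 63.1% of all genes passed. The CPM of the 2 lines did not overlap for 83.5% of genes. At least 2-fold differences were fewer, 1486 genes higher (8.51%) and 2611 lower (14.9%). The direction of small differences depended on the scaling. Upper-quartile scaling moved the median log2 difference of all genes from -0.01 to -0.18 and gave 4212 higher and 6852 lower, and scaling by library totals moved it to -0.20 and gave 4029 and 6951. Offsets for GC content and length, fitted on all genes tested, moved it to 0.13, with 6932 higher and 4773 lower. The same offsets fitted on protein-coding genes alone (coding offsets), an alternative added after seeing the data, gave 5196 higher and 3991 lower of 13267 coding genes. Log2 differences are KO over WT and are followed by ± their standard error (n = 2 libraries in each line). That error comes from the fit of all 8 libraries, so its spread is not that of the recovery libraries alone. Of the 275 genes named below, 64 passed the main test but did not pass against a minimum fold change of 1.5. The largest log2 difference among these 64 was 0.82 in size. Named genes that did not pass the main test are not in this count. Fewer members of the gene lists passed against that minimum fold change as well (of the chaperones below, 18 higher and 0 lower), which is not repeated at each list. Bulk RNA cannot tell a change in every cell from a change in the share of cells that carry a transcript. The line difference also varied by chromosome. Median log2 differences of coding genes at recovery ran from -0.23 (chromosome 8) to 0.26 (chromosome 20). On chromosome 8, 107 of 445 coding genes were higher and 212 lower, against 4833 and 3890 of all 13267. List members that lie there are not set apart below, and the part of the chromosome in their values was not tested.

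The targeted gene came first. FBXW7 (ENSG00000109670, chromosome 4, 152320544 to 152536063 in GRCh38) stood at 22.97 and 21.7 CPM in the WT and 14.01 and 13.8 CPM in the KO recovery libraries. The lines did not overlap, and the log2 difference was -0.68 ± 0.11 (adjusted p = 8.0e-05), against -1.01 at heat shock. Reads summed over the gene do not show which part was deleted, and reads over the deleted part were not analysed here. Since 31.3% of all genes were lower in KO, a difference of this size does not by itself check the labels.

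Among the partners of FBXW7 in the SCF ligase and its regulators, more genes were higher than lower in KO, 11 and 3 of 18 (median log2 difference 0.27, against -0.01 over all genes). The counts were 7 and 4 under both other scalings and with a mean count of at least 50, and 7 and 2 without WT recovery replicate 1. USP36, a nucleolar deubiquitinase that opposes FBXW7 on MYC, was at 41.02 and 39.5 CPM in WT and 113 and 108 CPM in KO recovery (1.46 ± 0.10). SKP2, the F-box protein of the ligase that degrades p27, was at 28.3 and 27.9 CPM in WT and 55.5 and 57.1 CPM in KO (1.005 ± 0.09). The scaffold CUL1 (0.86 ± 0.08), the modifier NEDD8 that activates cullins (0.89 ± 0.11) and CCNF, another F-box protein (0.98 ± 0.10), were also higher. Beside FBXW7 itself, the lower genes were FBXO32, an F-box protein of muscle atrophy that fell from 10.8 CPM in WT to 0.970 CPM in KO (-3.48 ± 0.21), and USP28, a deubiquitinase that counters FBXW7. The USP28 difference was small (-0.24 ± 0.09). Its call was lost without any 1 of the 4 recovery libraries (-0.28 to -0.19, adjusted p of 0.0555 to 0.165), under DESeq2 (adjusted p = 0.057), without the filter on low counts (-0.15), with GC and length offsets (-0.04) and with the coding offsets (-0.11).

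Transcripts that encode FBXW7 substrates moved in both directions. Of 32, 15 were higher and 9 lower, with a median of 0.12, which turned to -0.05 under upper-quartile scaling and -0.07 with library totals, both with 10 higher and 13 lower. CCNE1, encoding cyclin E1, was at 21.5 and 18.8 CPM in WT and 65.9 and 61.3 CPM in KO recovery. Both KO libraries were above both WT libraries, with a log2 difference of 1.66 ± 0.10 (adjusted p = 5.8e-09) that exceeded the one at heat shock (0.67) by 0.99 ± 0.14 (adjusted p = 2.8e-05). MYC was at 266 and 251 CPM in WT and 600.02 and 549 CPM in KO (1.15 ± 0.09, adjusted p = 5.5e-08). At heat shock the line difference of MYC had the opposite sign (-1.19), since MYC was at 776 CPM in WT and 339 CPM in KO then, and the change of 2.35 ± 0.12 between the 2 conditions passed (adjusted p = 1.4e-08). AURKA, a mitotic kinase, was higher as well (1.07 ± 0.08). The lower transcripts were led by NFATC2, a calcium-responsive transcription factor (15.1 and 13.5 CPM in WT, 1.29 and 1.37 CPM in KO, -3.42 ± 0.18). ETV5, an ETS factor (-1.61 ± 0.08), and GRHL2, a factor of epithelial identity (-1.73 ± 0.11), followed. JUN was at 20.2 and 24.4 CPM in WT and 16.5 and 15.8 CPM in KO (-0.46 ± 0.17, adjusted p = 0.0266), and that call was lost without KO recovery replicate 1 (-0.49) or replicate 2 (-0.43) or WT recovery replicate 2 (-0.33). HSF1 did not pass (82.5 and 77.3 CPM in WT, 81.2 and 73.8 CPM in KO, -0.04 ± 0.10, adjusted p = 0.729). With GC and length offsets HSF1 passed at -0.22; without the filter on low counts it gave 0.05, and without KO recovery replicate 2 it gave 0.03.

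**Figure D1:**
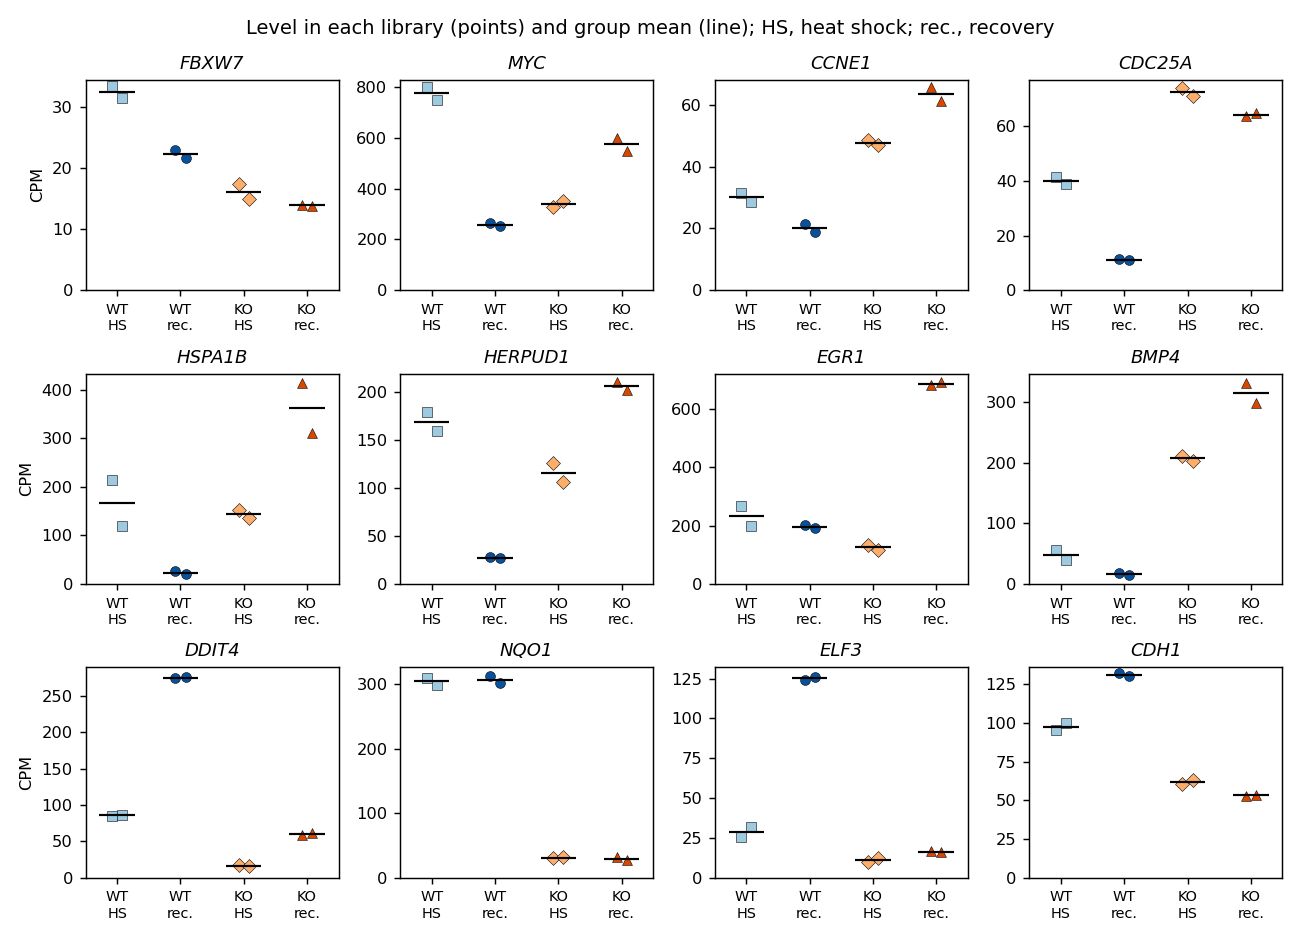
Level of 12 genes in CPM (vertical axis, starting at 0) in each of the 8 libraries; points are libraries, lines are group means, and WT, KO, heat shock (HS) and recovery (rec.) are on the horizontal axis. In recovery HSPA1B, HERPUD1, EGR1, MYC and BMP4 were higher in both KO libraries than in both WT libraries, while DDIT4, NQO1, ELF3 and CDH1 were lower; HSPA1B was at 363 CPM in KO and 23.2 CPM in WT recovery.

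Heat shock chaperones were mostly higher in KO at recovery. Of 39 measured chaperone genes, 30 were higher and 3 lower in KO (median log2 difference 0.91), against 31.8% and 31.3% of all genes. The counts were 26 and 4 under upper-quartile scaling (0.74) and 24 and 4 with library totals (0.72). With a mean count of at least 50 they were 26 and 4 of 37 (0.58). Without WT recovery replicate 2 the median was 0.69. At heat shock the same list had a median of 0.01, with 16 genes higher and 11 lower, where 27.4% and 28.2% of all genes were called. HSPA1B encodes an HSP70 that heat induces (ENSG00000204388, chromosome 6, 31827735 to 31830255 in GRCh38) and was at 26.4 and 19.9 CPM in WT and 414 and 312 CPM in KO recovery. Both KO libraries stood more than 10 times above both WT libraries (3.97 ± 0.24, adjusted p = 6.4e-09). At heat shock the lines had 167 CPM (WT) and 145 CPM (KO) and did not pass (-0.21, adjusted p = 0.411), and the change in the line difference was 4.18 ± 0.31 (adjusted p = 2.0e-07). HSPA1A, a near-identical copy named here after its values were seen, was counted at only 0.304 and 0.237 CPM in WT and 3.88 and 3.35 CPM in KO, so the division of reads between the copies is uncertain.

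The co-chaperones that work with HSP70 followed. DNAJA1, a J-domain protein, was at 169 and 164 CPM in WT and 949 and 887 CPM in KO recovery (2.46 ± 0.10). DNAJB1, the J-domain protein that disperses aggregates and feeds back on HSF1, was at 116 and 107 CPM in WT and 559 and 482 CPM in KO (2.22 ± 0.15). Both genes were above every heat shock mean of either line in the KO recovery libraries (for DNAJA1, 508 CPM in WT and 693 CPM in KO; for DNAJB1, 425 CPM and 328 CPM). BAG3, a nucleotide exchange factor that hands clients to autophagy, was at 77 and 70.2 CPM in WT and 427 and 380.1 CPM in KO (2.46 ± 0.18). HSPH1, an HSP110, was at 178 and 196 CPM against 567 and 533 CPM (1.56 ± 0.11), and STIP1, the adaptor between HSP70 and HSP90, differed by 1.35 ± 0.10. The immunophilin FKBP4 differed by 1.19 ± 0.11. The lower genes were FKBP5, another HSP90 immunophilin and a glucocorticoid target (-0.43 ± 0.08), ST13, an HSP70-interacting protein (-0.47 ± 0.09), and BAG1 (-0.37 ± 0.10), which did not pass without the filter on low counts (-0.28, adjusted p = 0.0644).

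HSF1 binds as a trimer to the heat shock element, inverted repeats of the pentamer nGAAn. An element of 3 such units in a row (GAA, its inverse and GAA, each separated by any pair of bases) was looked for on both strands. It was sought in the 250 bases before the RefSeq start sites (GRCh38.p14) of 10616 coding genes tested that matched a promoter by gene symbol. It was in 53 of them (0.499%), in 31 of 3964 genes higher in KO (0.782%) and in 9 of 3018 lower genes (0.298%). It was in 7 of the 37 chaperone genes with a promoter (18.9%). The 7 stretches follow, and capitals mark the element. The genes were chosen because they carry it, after their values were seen, so the likeness of the elements was set by the search.
SERPINH1: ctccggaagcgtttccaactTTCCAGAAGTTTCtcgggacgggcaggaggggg
CHORDC1: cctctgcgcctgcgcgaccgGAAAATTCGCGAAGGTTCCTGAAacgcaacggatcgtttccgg
HSPA8: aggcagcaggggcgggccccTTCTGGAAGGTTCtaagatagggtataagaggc
HSPD1: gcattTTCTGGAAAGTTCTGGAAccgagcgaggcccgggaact
HSP90AB1: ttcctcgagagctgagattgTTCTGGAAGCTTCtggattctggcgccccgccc
DNAJB6: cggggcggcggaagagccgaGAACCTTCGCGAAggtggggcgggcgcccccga
HSP90AA1: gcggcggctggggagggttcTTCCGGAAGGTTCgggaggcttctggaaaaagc

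The stretches are written 5′ to 3′ along the gene's strand. They lie at chr11:75562157-75562209 (plus strand, SERPINH1), chr11:90223067-90223129 (minus, CHORDC1), chr11:123062159-123062211 (minus, HSPA8), chr2:197500048-197500090 (minus, HSPD1), chr6:44247811-44247863 (plus, HSP90AB1), chr7:157336853-157336905 (plus, DNAJB6) and chr14:102087100-102087152 (minus, HSP90AA1). CHORDC1 carries 3 overlapping matches and HSPD1 carries 2. HSPA8 and HSP90AB1 have 2 matches each in the window, and the stretch printed holds the one nearer the start site. A match is a description of the letters and not a site shown to be bound, and HSPA1B, DNAJA1, DNAJB1 and BAG3 had no match to these letters in this window. All 7 genes were higher in KO, and their median log2 difference of 0.50 was below the 0.92 of the other chaperone genes with a promoter. SERPINH1, a collagen chaperone of the endoplasmic reticulum (ER), was at 113 and 118 CPM in WT and 409.9 and 302 CPM in KO recovery (1.63 ± 0.19). CHORDC1, an HSP90 co-chaperone, was at 60.7 and 61.6 CPM and 148 and 136 CPM (1.21 ± 0.11). HSPA8, the constitutive HSP70, was at 1748 and 1779.8 CPM and 4410.0 and 3616 CPM (1.19 ± 0.12). HSPD1, the mitochondrial HSP60 (0.50 ± 0.08), HSP90AB1 (0.47 ± 0.09), DNAJB6 (0.38 ± 0.09) and HSP90AA1 (0.38 ± 0.09), genes with high levels in every library, differed less. HSP90AA1 did not pass without WT recovery replicate 1 (0.27, adjusted p = 0.0527), and with library totals neither it (0.19) nor DNAJB6 (0.20) passed.

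The CCT chaperonin, which folds actin and tubulin, and its delivery complex prefoldin gave 12 of 14 genes higher and 0 lower, with a median of 0.37; under upper-quartile scaling the counts were 6 and 1, and with library totals 5 and 1. TCP1 was at 354 and 336 CPM in WT and 639 and 564 CPM in KO recovery (0.80 ± 0.09), CCT7 differed by 0.74 ± 0.09 and CCT5 by 0.68 ± 0.09. Of 9 heat shock factors and HSF partners, 5 were higher. CREBBP and EP300, the acetyltransferases that modify HSF1, were at 78.1 and 81.2 CPM in WT and 257 and 256 CPM in KO (1.69 ± 0.11) and at 79.7 and 80.9 CPM and 134 and 137 CPM (0.76 ± 0.09). HSBP1, a negative regulator of HSF1 (0.62 ± 0.11), the deacetylase SIRT1 (0.33 ± 0.11) and FKBP4 were the others. SIRT1 did not pass without any 1 of the 4 recovery libraries (0.31 to 0.36), under the other scalings (0.14 to 0.16) or with a mean count of at least 50 (0.24). HSF2 (29.4 and 32.5 CPM in WT, 21.3 and 22.5 CPM in KO, -0.50 ± 0.11) and HSF4 (3.83 and 3.14 CPM and 1.25 and 1.71 CPM, -1.22 ± 0.26) were lower.

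**Figure D2:**
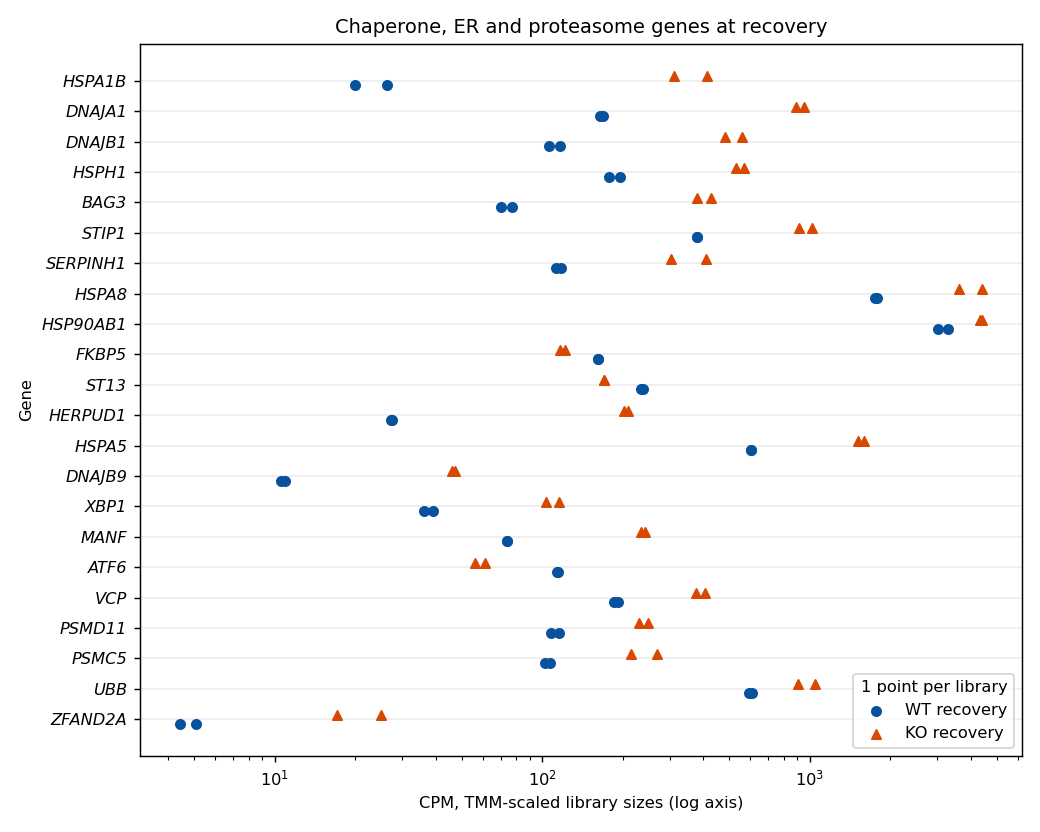
Level at recovery of 22 genes of chaperones, ER stress, the proteasome and ubiquitin (CPM, log axis), 1 point per library, WT as circles and KO as triangles. For all but FKBP5, ST13 and ATF6 both KO libraries were above both WT libraries; the widest gap was that of HSPA1B, 26.4 and 19.9 CPM against 414 and 312 CPM.

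Genes that dispose of damaged proteins were also higher in KO. Of 36 proteasome genes, 30 were higher and 1 lower (median 0.64, against -0.07 at heat shock). PSMD11, a lid subunit, was at 115 and 108 CPM in WT and 249 and 230.2 CPM in KO recovery (1.103 ± 0.09). PSMC5, an ATPase of the base, was at 107 and 103 CPM and 268 and 214 CPM (1.204 ± 0.10), and PSMD7 differed by 1.09 ± 0.10. The lower gene was PSMG2, an assembly chaperone (-0.42 ± 0.09). Of 18 genes of ubiquitin and its adaptors, 15 were higher and 0 lower (median 0.56), against 12 and 2 under both other scalings. VCP, the ATPase that extracts ubiquitinated proteins, was at 186 and 192 CPM in WT and 405 and 376 CPM in KO (1.05 ± 0.11), and its cofactors UFD1 (0.93 ± 0.10) and NPLOC4 (0.90 ± 0.09) were higher with it. ZFAND2A, an arsenite- and heat-inducible proteasome partner, was at 4.44 and 5.101 CPM in WT and 24.9 and 17.1 CPM in KO (2.13 ± 0.28). UBB, a polyubiquitin gene (0.70 ± 0.11), and STUB1, the ligase that works with HSP70 (0.83 ± 0.12), were higher too, while at heat shock UBB (-0.73), STUB1 (-0.49) and ZFAND2A (-0.83) were lower in KO.

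In the ER unfolded protein response 19 of 30 genes were higher and 5 lower (median 0.69). HERPUD1, a part of ER-associated degradation (ENSG00000051108, chromosome 16, 56932048 to 56944863 in GRCh38), was at 27.5 and 27.2 CPM in WT and 209.9 and 202 CPM in KO recovery. Both KO libraries were above all others (2.91 ± 0.11, adjusted p = 8.8e-11), and the line difference changed by 3.46 ± 0.14 from heat shock (adjusted p = 3.2e-09). HSPA5, the ER HSP70, was at 605 and 601 CPM in WT and 1597 and 1512 CPM in KO (1.37 ± 0.08). DNAJB9, a J-domain protein that holds HSPA5 on the sensor IRE1, was at 10.9 and 10.6 CPM and 47.4 and 45.9 CPM (2.11 ± 0.11). XBP1, the transcription factor spliced by IRE1 (1.54 ± 0.09), MANF (1.69 ± 0.09) and DNAJC3, an inhibitor of PERK (1.38 ± 0.09), were higher. The lower genes included the sensor ATF6, at 114 and 114 CPM in WT and 55.97 and 61.2 CPM in KO (-0.96 ± 0.08). ERN1, which encodes the sensor IRE1, differed by -0.52 ± 0.12. The others were the ER oxidases ERO1A (-0.56 ± 0.13) and ERO1B (-0.82 ± 0.18) and DERL1 (-0.27 ± 0.08). DERL1 did not pass without KO recovery replicate 1 or 2 or WT recovery replicate 1 (-0.27 to -0.22), with GC and length offsets (-0.05), with the coding offsets (-0.11) or without the filter on low counts (-0.18).

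Genes that make ribosomes were higher in KO almost throughout. Of 39 ribosome biogenesis genes, 35 were higher and 0 lower (median 0.92, against 0.39 at heat shock), and of 32 MYC targets of the nucleolus and growth, 25 were higher and 2 lower (median 0.71). URB2, a nucleolar factor, was at 15.01 and 13.7 CPM in WT and 71.5 and 68.9 CPM in KO recovery (2.29 ± 0.10). NOP2, an rRNA methyltransferase, was at 64.4 and 63.1 CPM and 226 and 216 CPM (1.79 ± 0.09). BYSL, needed for the small subunit (1.802 ± 0.10), and POLR1B, the second largest subunit of RNA polymerase I (1.16 ± 0.08), were higher as well. Among the MYC targets, GRWD1 was at 18.4 and 16.02 CPM in WT and 95.4 and 93.5 CPM in KO (2.46 ± 0.10), MRTO4 at 44.2 and 43.2 CPM and 187 and 184 CPM (2.09 ± 0.08) and PPRC1, a coactivator of the PGC-1 family, at 70.6 and 69.9 CPM and 330.4 and 309 CPM (2.19 ± 0.10). NOP56, a box C/D snoRNP core protein (1.77 ± 0.08), RRS1 (1.97 ± 0.10) and TFRC, the transferrin receptor (1.64 ± 0.09), were higher too. The lower MYC targets were HK2, a hexokinase (-0.55 ± 0.09), and BOP1 (-0.36 ± 0.13). BOP1 did not pass without KO recovery replicate 2 (-0.20), WT recovery replicate 1 (-0.31) or WT recovery replicate 2 (-0.42), under DESeq2 (adjusted p = 0.0557) or without the filter (-0.27).

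For transcripts of the ribosomal proteins themselves the counts depended on the processing. Of 46 large-subunit genes 17 were higher and 5 lower, with a median of 0.19. They were 10 and 9 under upper-quartile scaling (0.02), 10 and 10 with library totals (-0.00), 31 and 1 with GC and length offsets (0.35), 17 and 8 with the coding offsets (0.14), 28 and 3 without the low-count filter, and 11 and 7 with a mean count of at least 50. Without 1 recovery library they were 10 and 4 (without KO replicate 1), 20 and 2 (KO replicate 2), 13 and 2 (WT replicate 1) and 10 and 3 (WT replicate 2). Of 31 small-subunit genes 9 were higher and 1 lower, with a median of 0.13. They were 5 and 4 under upper-quartile scaling (-0.04), 4 and 6 with library totals (-0.06), 25 and 0 with GC and length offsets (0.40), 6 and 3 with the coding offsets (0.03), and 19 and 1 without the low-count filter. Without 1 library they were 4 and 0 (KO recovery replicate 1), 14 and 0 (KO recovery replicate 2), 5 and 1 (WT recovery replicate 2) and 14 and 2 (either WT heat shock replicate). At heat shock the medians were -0.98 and -1.10. RPL11 was at 1085 and 1053 CPM in WT and 1986 and 1676 CPM in KO (0.78 ± 0.09), RPS15 differed by 0.99 ± 0.12 and RPL41 by 0.60 ± 0.12. RPS28 was at 235 and 189 CPM in WT and 295 and 267 CPM in KO recovery (0.41 ± 0.11), but at 295 CPM in WT and 16.9 CPM in KO at heat shock. The RPS28 call at recovery was lost without KO recovery replicate 1 (0.34) or WT recovery replicate 2 (0.25) under both other scalings (0.22 to 0.24) and with the coding offsets (0.17). The lower genes were RPL30 (-0.44 ± 0.09), RPL17 (-0.57 ± 0.16), RPLP0 (-0.30 ± 0.09), RPL15 (-0.25 ± 0.08), RPL8 (-0.25 ± 0.09) and RPS25 (-0.37 ± 0.14). Each of the 6 lost its call in some setting. With GC and length offsets RPL17 turned to 0.12, and RPL30 (-0.13), RPL15 (-0.11), RPL8 (-0.02) and RPS25 (-0.17) did not pass. Neither RPL15 nor RPL8 passed without the low-count filter (-0.16 in both), nor RPL17 (-0.57) and RPS25 (-0.38) under DESeq2. Calls were also lost for RPL17 without KO recovery replicate 1 (-0.45), for RPLP0 without KO recovery replicate 2 or WT recovery replicate 1 (-0.24 to -0.20), for RPL15 (-0.28 to -0.22) and RPL8 (-0.30 to -0.14) without KO recovery replicate 2 or either WT recovery replicate, and for RPS25 without either KO recovery replicate or WT recovery replicate 1 (-0.39 to -0.30). Ribosomal protein genes have many near-identical pseudogenes, so their counts are uncertain.

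Cell cycle genes were higher in KO for the replication and mitotic parts and mixed for the regulators of G1. Of 40 replication genes 35 were higher and 0 lower (median 0.72). MCM10, which loads polymerase alpha, was at 36.1 and 39.2 CPM in WT and 122 and 118 CPM in KO recovery (1.67 ± 0.08). CDC6, a licensing factor, was at 89.2 and 81.7 CPM and 240.03 and 231 CPM (1.46 ± 0.09), and UHRF1, which maintains DNA methylation, at 60.95 and 57.9 CPM and 212 and 170.2 CPM (1.68 ± 0.12). FEN1, the flap endonuclease (1.397 ± 0.08), CLSPN, a checkpoint mediator (1.35 ± 0.08), and ORC1, of the origin recognition complex (1.09 ± 0.09), were higher. Of 40 mitotic genes 28 were higher and 2 lower (median 0.54), against 23 and 6 under both other scalings, 35 and 0 with GC and length offsets, 33 and 0 with the coding offsets, 26 and 0 without KO recovery replicate 1 and 25 and 0 without WT recovery replicate 2. PLK1, a mitotic kinase, was at 127 and 129 CPM in WT and 403 and 357 CPM in KO (1.57 ± 0.11), and the cyclin CCNB1 (1.09 ± 0.08), the anaphase-promoting complex activator CDC20 (1.16 ± 0.09) and the ubiquitin-conjugating enzyme UBE2C (1.11 ± 0.08) were higher. The lower genes, the kinesin CENPE (-0.34 ± 0.12) and the spindle protein ASPM (-0.29 ± 0.11), have long transcripts, and neither passed with GC and length offsets (-0.03 and 0.03) or the coding offsets (0.03 and 0.06), nor ASPM without the low-count filter (-0.20). Without KO recovery replicate 1 or WT recovery replicate 2 CENPE gave -0.23 and -0.26, and ASPM did not pass without KO recovery replicate 1 or either WT recovery replicate (-0.33 to -0.18).

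Among the regulators of G1, 13 of 28 were higher and 11 lower, and their median of 0.09 turned to -0.08 under upper-quartile scaling, -0.10 with library totals and -0.01 with a mean count of at least 50. CDC25A, the phosphatase that activates CDK2, was at 11.4 and 10.9 CPM in WT and 63.8 and 64.8 CPM in KO recovery (2.52 ± 0.10, adjusted p = 1.1e-10). The KO libraries were more than 5 times above the WT libraries and near the KO heat shock mean of 72.6 CPM, while WT had been at 40.1 CPM at heat shock. CCND1, encoding cyclin D1, was at 299.7 and 290.4 CPM in WT and 631 and 565 CPM in KO (1.02 ± 0.09), and the repressors E2F7 (0.95 ± 0.09) and E2F8 (0.95 ± 0.09) were higher. RBL2, the retinoblastoma relative of quiescent cells, was lower (48.6 and 55.9 CPM in WT, 23.4 and 27.2 CPM in KO, -1.04 ± 0.10). Of 24 replication-dependent histone genes 7 were higher and 1 lower, HIST1H2AC (-1.03 ± 0.20). Without WT recovery replicate 2, 3 were higher, and with GC and length offsets 11 were; with the coding offsets 3 of the 14 measured were. Most such transcripts lack a poly-A tail, and the sources used here do not say which libraries were made from poly-A RNA and which by depletion of ribosomal RNA.

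Tubulins and the splicing machinery were also higher in KO. Of 17 tubulin, actin and tubulin cofactor genes 14 were higher and 1 lower, with a median of 1.01, against -0.49 at heat shock. TUBB4B was at 158 and 151 CPM in WT and 894 and 780.3 CPM in KO recovery (2.43 ± 0.12), TUBA1C at 171 and 158 CPM and 615 and 567 CPM (1.85 ± 0.09), and TUBB2A at 8.33 and 7.06 CPM and 43.2 and 37.7 CPM (2.39 ± 0.12). TUBB (1.097 ± 0.09) and TUBA1B (1.45 ± 0.10) were higher, and TUBA1A was the lower member (36.7 and 35.5 CPM in WT, 20.1 and 18.01 CPM in KO, -0.92 ± 0.10). Tubulin genes are close copies of each other, so reads may be divided unevenly among them. Of 27 genes of SR proteins, hnRNPs and splicing kinases 23 were higher and 1 lower (median 0.73), against 19 and 3 with library totals. SRSF7 was at 75.5 and 74.7 CPM in WT and 357 and 239 CPM in KO (1.99 ± 0.14), TRA2B differed by 1.48 ± 0.09 and SRSF2 by 1.18 ± 0.08. The lower gene was the kinase SRPK2 (-0.41 ± 0.08).

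Immediate early genes, which respond within minutes to growth factors and stress, were mostly higher in KO at recovery. Of 42 such genes 27 were higher and 7 lower (median 0.54, against 0.08 at heat shock). EGR1, a zinc finger factor, was at 202 and 192 CPM in WT and 682 and 694 CPM in KO recovery (1.805 ± 0.12). The lines had the opposite order at heat shock (-0.89), and the change was 2.69 ± 0.17 (adjusted p = 5.4e-08). DUSP2, a nuclear phosphatase of ERK and p38, was at 2.86 and 2.85 CPM in WT and 29.5 and 28.9 CPM in KO (3.35 ± 0.14). SGK1, a kinase downstream of PI3K, was at 1.702 and 2.49 CPM and 21.4 and 18.9 CPM (3.26 ± 0.18), and its line difference at heat shock was similar in size (2.91; change 0.34 ± 0.26, adjusted p = 0.285). FOSL1, an AP-1 subunit (1.47 ± 0.12), NR4A1, a nuclear receptor (1.56 ± 0.15), and CYR61, a matricellular protein (8.69 and 9.67 CPM in WT, 45.3 and 39.98 CPM in KO, 2.21 ± 0.14), were higher. Of 27 outputs of ERK and ligands of the EGF receptor, 10 were higher and 6 lower, with a median of 0.16 that was -0.00 under upper-quartile scaling and -0.03 with library totals; with GC and length offsets 16 were higher and 4 lower (0.29), and with the coding offsets 14 and 4 (0.21). HBEGF, a ligand of the EGF receptor, was at 10.03 and 8.25 CPM in WT and 28.8 and 28.97 CPM in KO (1.66 ± 0.12), the receptor kinase EPHA2 differed by 1.52 ± 0.12, and ERBB3, a receptor of the same family as EGFR, was lower (-1.01 ± 0.09).

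Several secreted regulators of the Wnt and BMP pathways were higher in KO. BMP4, a ligand of the BMP family (ENSG00000125378, chromosome 14, 53949736 to 53958761 in GRCh38), was at 17.6 and 15.4 CPM in WT and 331 and 299 CPM in KO recovery. The KO libraries stood far above the WT libraries (4.26 ± 0.15, adjusted p = 8.8e-11), and the difference was larger than at heat shock (2.11) by 2.15 ± 0.20 (adjusted p = 9.0e-07). ID3 and ID2, inhibitors of helix-loop-helix factors and known targets of BMP signalling, were at 23.8 and 23.4 CPM in WT and 127 and 156 CPM in KO (2.58 ± 0.11) and at 38.4 and 37.5 CPM and 137 and 131 CPM (1.82 ± 0.09). DKK1, a secreted Wnt antagonist, was at 212 and 204 CPM in WT and 1178 and 1266 CPM in KO (2.55 ± 0.09), and WNT16 at 43.3 and 46.1 CPM and 266 and 245 CPM (2.51 ± 0.09). On the list of Wnt targets and feedback genes, which holds BMP4, DKK1 and the ID genes, 14 of 23 were higher and 5 lower (median 0.51), and with a mean count of at least 50, 13 and 3 of 20. AXIN2, a feedback inhibitor of Wnt signalling, was at 5.65 and 4.21 CPM and 18.5 and 18.5 CPM (1.91 ± 0.16), and RNF43, a ligase that removes Wnt receptors, differed by 1.06 ± 0.09. The lower genes were the receptor FZD7 (-1.102 ± 0.12), CD44 (1102 and 1147 CPM in WT, 728 and 674 CPM in KO, -0.68 ± 0.08), the factor TCF7L2 (-0.53 ± 0.09), and the ligands WNT6 (-2.72 ± 0.43) and WNT10A (-1.63 ± 0.41), both under 3 CPM; WNT10A did not pass without WT recovery replicate 1 (-1.13).

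In the list of YAP and TEAD targets 11 of 19 genes were higher and 6 lower (median 0.33). AMOTL2 was at 22.5 and 18.2 CPM in WT and 83.6 and 80.03 CPM in KO recovery (2.01 ± 0.11) and F3, tissue factor, differed by 1.35 ± 0.09, while the receptor kinase AXL (-1.18 ± 0.09) and the ectonucleotidase NT5E (-0.77 ± 0.08) were lower. The Notch pathway had 7 of 26 genes higher and 11 lower (median -0.31), against 6 and 7 of 25 without WT recovery replicate 1. JAG1, a Notch ligand, was at 43.1 and 44.02 CPM in WT and 194 and 179.6 CPM in KO (2.098 ± 0.10). The receptor NOTCH3 was lower (59.7 and 59.7 CPM in WT, 20.6 and 19.5 CPM in KO, -1.58 ± 0.12), as were the coactivators MAML3 (-2.87 ± 0.18) and MAML2 (-1.74 ± 0.16) and RBPJ, the DNA-binding partner of the cleaved receptor (-0.86 ± 0.08). The third coactivator, MAML1, was higher (0.76 ± 0.08).

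Targets of ATF4 and CHOP, the factors of the integrated stress response, were mostly lower in KO, with a median of -0.57 at recovery and -0.74 at heat shock. Of 32 genes 22 were lower and 4 higher, and 25 and 2 under both other scalings. DDIT4, an inhibitor of mTORC1 (ENSG00000168209, chromosome 10, 72273920 to 72276036 in GRCh38), was at 274 and 276 CPM in WT and 58.3 and 61.5 CPM in KO recovery (-2.200 ± 0.08, adjusted p = 8.8e-11). The line difference at heat shock was -2.35, and the change between the conditions did not pass (0.15 ± 0.11, adjusted p = 0.267). ASNS, asparagine synthetase, was at 518 and 506 CPM in WT and 159 and 145 CPM in KO (-1.75 ± 0.10; -1.82 at heat shock). PCK2 (-1.03 ± 0.09) and the cystine transporter SLC7A11 (-1.27 ± 0.13) were lower. The higher genes were SHMT2 (0.85 ± 0.09), ATF5 (1.00 ± 0.11), CHAC1 (0.43 ± 0.11) and SLC1A5 (0.34 ± 0.10). CHAC1 (0.24 to 0.26) and SLC1A5 (0.15 to 0.18) did not pass under the other scalings, nor did CHAC1 with the coding offsets (0.25) or SLC1A5 with GC and length offsets (0.15), without KO recovery replicate 1 (0.25) or without WT recovery replicate 2 (0.30). Of 20 aminoacyl-tRNA synthetases 6 were higher and 7 lower, with a median of -0.11 that was 0.01 with GC and length offsets. They were 5 and 14 with library totals (-0.30), 5 and 13 under upper-quartile scaling (-0.28) and 5 and 11 with a mean count of at least 50 (-0.21). FARSA was higher (1.28 ± 0.09), and SARS (-0.66 ± 0.09) and GARS (-0.58 ± 0.08) were lower.

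NQO1, a quinone reductase and classical NRF2 target (ENSG00000181019, chromosome 16, 69706996 to 69726951 in GRCh38), was among the abundant genes with the largest lower values in KO. Its level was 312 and 302 CPM in WT and 31.7 and 27.9 CPM in KO recovery (-3.37 ± 0.10, adjusted p = 1.0e-11), and 305 CPM in WT and 31.1 CPM in KO at heat shock (-3.29). The line difference did not change between the conditions by more than its error (-0.08 ± 0.13, adjusted p = 0.632). The NRF2 list as a whole was mixed, with 11 of 27 genes higher and 9 lower and a median of 0.06 that turned to -0.11 under upper-quartile scaling, -0.13 with library totals (9 higher and 12 lower in both), -0.04 with a mean count of at least 50 and -0.04 without KO recovery replicate 1. With the coding offsets 8 of 25 were higher and 12 lower (-0.07). The export pumps ABCC3 (20.2 and 24.3 CPM in WT, 4.28 and 3.08 CPM in KO, -2.61 ± 0.16) and ABCC2 (-1.45 ± 0.09) and catalase, CAT (-1.11 ± 0.09), were lower. KEAP1, the adaptor that degrades NRF2, was at 41.8 and 41.2 CPM in WT and 153 and 132 CPM in KO (1.78 ± 0.14), and PGD, of the pentose phosphate pathway, was higher (1.296 ± 0.11).

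Genes of glycolysis and hypoxia were divided, with 15 of 33 lower, 9 higher and a median of -0.09 that was 0.06 with GC and length offsets and -0.00 with the coding offsets; without the low-count filter 14 were lower and 15 higher (0.00). The hypoxia genes BNIP3L, a mitophagy receptor (75.4 and 76.5 CPM in WT, 18.4 and 16.6 CPM in KO, -2.12 ± 0.10), NDRG1 (-1.74 ± 0.09), P4HA1, a collagen prolyl hydroxylase (-1.74 ± 0.10), and KDM3A, a histone demethylase (-1.097 ± 0.08), were lower, as was ALDOC, an aldolase (-1.46 ± 0.10). The glucose transporter SLC2A1 was at 76.1 and 74.2 CPM in WT and 258 and 226 CPM in KO (1.69 ± 0.09). Of 21 genes of autophagy and lysosomes 10 were lower and 3 higher (median -0.21), and 5 were higher with GC and length offsets or without the low-count filter. The receptor NBR1 was at 156 and 164 CPM in WT and 62.6 and 63.3 CPM in KO (-1.35 ± 0.08), and ULK1, the initiating kinase (-1.22 ± 0.11), GABARAPL1 (-1.19 ± 0.10), MAP1LC3B (-0.82 ± 0.12) and the factor TFE3 (-1.096 ± 0.12) were lower. The higher genes were the cathepsins CTSL (0.66 ± 0.11) and CTSD (0.60 ± 0.10) and ATG13 (0.26 ± 0.08). ATG13 did not pass without KO recovery replicate 2 or either WT recovery replicate (0.22 to 0.27), under the other scalings (0.08 to 0.10), with the coding offsets (0.16) or with a mean count of at least 50 (0.17).

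Genes of the interferon response were lower in KO for 16 of 30 members and higher for 3 (median -0.45; -0.55 at heat shock). Under both other scalings, with a mean count of at least 50, and without KO recovery replicate 1 or either WT recovery replicate, 1 was higher. HLA-E was at 145 and 136 CPM in WT and 66.8 and 69.6 CPM in KO recovery (-1.04 ± 0.08), and B2M, the light chain of class I molecules, at 328 and 346 CPM and 216 and 209.7 CPM (-0.66 ± 0.08). IRF9, a subunit of the factor ISGF3 (-1.59 ± 0.15), the RNA sensors IFIH1 (-1.49 ± 0.17) and DDX58 (-1.28 ± 0.12), and IFIT2 (-2.71 ± 0.31) were lower. The higher genes included HLA-C (0.24 ± 0.08) and ISG15 (0.21 ± 0.08). The calls of HLA-C (0.21 to 0.25) and ISG15 (0.17 to 0.24) were each lost without KO recovery replicate 1 or either WT recovery replicate, that of HLA-C also without KO recovery replicate 2, and that of ISG15 also without either KO heat shock replicate; both were lost under the other scalings (0.03 to 0.07), with a mean count of at least 50 (0.14 and 0.12) and with the coding offsets (0.06 and -0.03). With GC and length offsets the call of HLA-C was lost (0.14); ISG15 did not pass under DESeq2 (0.21), over coding genes alone (0.16) or over those with no pseudogene named after them (0.17). Among factors and targets of NF-kappaB 7 of 24 were higher and 6 lower, and the median of 0.03 turned to -0.13 under upper-quartile scaling and -0.15 with library totals (4 higher and 8 lower in both), -0.02 over coding genes alone, -0.06 without KO recovery replicate 2 and -0.11 without WT recovery replicate 1. BIRC3, an inhibitor of apoptosis, was at 19.3 and 22.2 CPM in WT and 5.85 and 6.66 CPM in KO (-1.73 ± 0.14), whereas at heat shock it was higher in KO (1.11; change -2.83 ± 0.21, adjusted p = 1.9e-07). BCL3 (-1.48 ± 0.14) and NFKB2 (-0.57 ± 0.09) were lower and TRAF2 (1.41 ± 0.14), NFKBIB (0.87 ± 0.10) and NFKB1 (0.59 ± 0.10) higher.

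Markers of epithelial and colon identity were lower in KO for 10 of 22 genes and higher for 4 (median -0.24), and with a mean count of at least 50 for 10 and 2 of 17. ELF3, an epithelial ETS factor (ENSG00000163435, chromosome 1, 202007945 to 202017188 in GRCh38), was at 124 and 126 CPM in WT and 16.6 and 16.3 CPM in KO recovery (-2.93 ± 0.11, adjusted p = 1.3e-10), a difference larger than that at heat shock (-1.37) by -1.56 ± 0.16 (adjusted p = 2.4e-06). CLDN4, a tight junction claudin, was at 227 and 213 CPM in WT and 48.7 and 45.2 CPM in KO (-2.23 ± 0.09). ESRP1, a splicing regulator of epithelial cells, was at 319 and 328 CPM and 87.1 and 96.7 CPM (-1.82 ± 0.09), and CDH1, E-cadherin, at 132 and 130.2 CPM and 52.6 and 53.7 CPM (-1.301 ± 0.08). CLDN3 (-1.96 ± 0.15) and GRHL2 were lower as well. The higher genes were the keratin KRT19 (505 and 483 CPM in WT, 769.6 and 738 CPM in KO, 0.61 ± 0.08), HNF4A (0.790 and 0.890 CPM and 4.73 and 4.19 CPM, 2.397 ± 0.28), CDX2 (0.44 ± 0.15) and the mucin MUC13. MUC13 had 0 counts in both WT recovery libraries and 36 in the KO libraries together, which is at least 8.21-fold higher in KO against a floor of 3 counts over the WT group. CDX2 did not pass without KO recovery replicate 1 (0.29) or WT recovery replicate 2 (0.25), under the other scalings (0.25 to 0.27), with GC and length offsets (0.31), with the coding offsets (0.30) or with a mean count of at least 50 (0.34).

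Of 9 mesenchymal and fibroblast genes measured 3 were higher and 1 lower, and the median of 0.15 was -0.01 under upper-quartile scaling, -0.03 with library totals and -0.08 with the coding offsets. SNAI1 (0.73 ± 0.12) and ZEB1 (3.71 and 4.86 CPM in WT, 6.47 and 8.22 CPM in KO, 0.78 ± 0.21), repressors of CDH1, and FN1, fibronectin (0.53 ± 0.11), were higher, and SPARC was lower (-2.02 ± 0.35). ZEB1 did not pass without KO recovery replicate 2 or WT recovery replicate 1 (0.60 in both). VIM, vimentin, did not pass and was at 1.82 and 2.02 CPM in WT and 1.87 and 1.104 CPM in KO. Of 22 keratin, annexin and S100 genes 8 were higher and 8 lower, and the median of 0.05 turned to -0.12 under upper-quartile scaling, -0.14 with library totals, -0.10 with a mean count of at least 50, -0.01 over coding genes alone and -0.03 without KO recovery replicate 1. ANXA10 was at 8.45 and 8.96 CPM in WT and 86.8 and 77.6 CPM in KO (3.24 ± 0.11) and KRT23 differed by 1.93 ± 0.16. S100A14 was at 151 and 149 CPM in WT and 25.98 and 28.2 CPM in KO (-2.47 ± 0.09), and S100A6 (-1.23 ± 0.10), S100A4 (-1.46 ± 0.14) and ANXA1 (-0.84 ± 0.09) were lower.

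PLK2, a stress-induced kinase and p53 target (ENSG00000145632, chromosome 5, 58453982 to 58460260 in GRCh38), was at 14.4 and 13.8 CPM in WT and 217 and 207 CPM in KO recovery (3.91 ± 0.10, adjusted p = 6.3e-12) and already differed at heat shock (3.13). The p53 targets as a list were divided, with 16 of 32 higher and 10 lower (median 0.28). AEN, a nuclease (1.82 ± 0.10), FDXR (1.05 ± 0.09) and SERTAD1 (1.37 ± 0.10) were higher, and PERP, a desmosome protein, was lower (-0.96 ± 0.08). In the BCL2 family 7 of 18 genes were higher and 8 lower, and the median of -0.10 was 0.14 with GC and length offsets, 0.04 with the coding offsets and 0.03 with a mean count of at least 50. BMF, a BH3-only activator of apoptosis, had 141 counts in WT and 3 in KO recovery, 68.7 times higher in WT with a 95% counting interval of 23.02 to 337. BID (1.03 ± 0.10), MCL1 (0.52 ± 0.08) and BAX (0.78 ± 0.13) were higher.

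Some genes were higher in KO by large folds in both conditions. SPRR2D, a cornified envelope protein, had 3 counts in WT and 740 in KO recovery (ratio 169, 95% interval 57.5 to 821 for counting error), and STC1, a secreted glycoprotein, 1 and 340 (ratio 233, interval 41.5 to 9218). TM4SF18 was at 0.0608 and 0.475 CPM in WT and 6.92 and 7.196 CPM in KO (4.68 ± 0.36), ZBED2, a zinc finger protein, at 2.61 and 1.96 CPM and 36.1 and 33.4 CPM (3.92 ± 0.15), and NECTIN3, an adhesion molecule, at 31.8 and 34.05 CPM and 241 and 244 CPM (2.88 ± 0.09). At heat shock the means were 0.0769 CPM in WT and 6.32 CPM in KO for SPRR2D and 0.0513 and 7.31 CPM for STC1. The line differences at heat shock were 5.14 for TM4SF18, 3.69 for ZBED2 and 3.03 for NECTIN3, and for none of the 5 did the change between the conditions pass. Of the 15 coding genes with the largest higher values by the naming rule, 7 lie on the Y chromosome and are not named; all 8 coding genes tested there were higher in KO in both conditions.

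The reverse held for NBDY, a microprotein of the mRNA decapping complex (47.5 and 42.1 CPM in WT, 0.536 and 0.952 CPM in KO, -5.87 ± 0.17), TENM3, a teneurin (14.6 and 13.5 CPM and 0.669 and 0.647 CPM, -4.403 ± 0.20), ADGRF1, an adhesion receptor (60.3 and 71.9 CPM and 4.37 and 5.901 CPM, -3.67 ± 0.15), LEMD1 (-4.28 ± 0.24) and ANKRD22 (-5.71 ± 0.46). All 5 were also lower in KO at heat shock, with log2 differences of -5.96 (NBDY), -5.04 (TENM3), -3.23 (ADGRF1), -3.401 (LEMD1) and -3.96 (ANKRD22). Of abundant genes, SAT1, the enzyme that breaks down polyamines, was at 958 and 956 CPM in WT and 163 and 159 CPM in KO recovery (-2.57 ± 0.09) and LIMA1, an actin-binding protein, at 207 and 212 CPM and 41.4 and 42.9 CPM (-2.31 ± 0.10). H1F0, the linker histone of quiescent cells (-2.05 ± 0.09), SYT1, a synaptotagmin (-1.88 ± 0.08), PPL, periplakin (-1.84 ± 0.09), and RHOBTB3 (-1.84 ± 0.09) were lower too.

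A further set was lower in KO by more at recovery than at heat shock. PDK4, a brake on pyruvate dehydrogenase, was at 8.204 and 10.03 CPM in WT and 0.402 and 0.685 CPM in KO recovery (-4.03 ± 0.28), against 1.51 and 1.19 CPM at heat shock, a change in the line difference of -3.68 ± 0.42 (adjusted p = 6.2e-06). ANGPTL4, an inhibitor of lipoprotein lipase, was at 17.1 and 21.4 CPM in WT and 1.47 and 1.14 CPM in KO (-3.89 ± 0.21), with a change of -3.31 ± 0.38 (adjusted p = 5.8e-06). SESN3, a sestrin that restrains mTORC1, was at 23.8 and 25.9 CPM in WT and 1.47 and 1.41 CPM in KO (-4.11 ± 0.18), and DEPTOR, an inhibitory subunit of mTOR complexes, at 10.8 and 11.6 CPM and 0.848 and 0.914 CPM (-3.66 ± 0.21). For all 4 the mean level of WT was higher at recovery than at heat shock. GPR173 (-3.71 ± 0.27) and ZNF469 (-4.41 ± 0.34) were lower as well.

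Cholesterol synthesis and SREBP targets were mostly higher in KO, 21 of 34 against 7 lower (median 0.43; -0.17 at heat shock). They were 18 and 12 under upper-quartile scaling, 17 and 12 with library totals and 21 and 4 without the low-count filter. NSDHL, a sterol dehydrogenase, was at 14.8 and 15.2 CPM in WT and 49.99 and 40.1 CPM in KO recovery (1.58 ± 0.12), and IDI1 (1.099 ± 0.08) and INSIG1 (1.03 ± 0.09) were higher. SQLE, squalene epoxidase, was lower (77.1 and 76.6 CPM in WT, 28.7 and 30.9 CPM in KO, -1.36 ± 0.10), as was the elongase ELOVL6 (-0.91 ± 0.09). Of 37 nuclear genes of oxidative phosphorylation 21 were higher and 1 lower (median 0.34; -0.42 at heat shock). They were 17 and 8 under both other scalings, 20 and 6 with a mean count of at least 50, 23 and 6 in the fit of the 2 recovery groups alone, 21 and 3 with the replicate block, 20 and 5 over coding genes alone, 22 and 5 with the coding offsets and 23 and 4 without either WT heat shock replicate. SDHA of complex II (0.91 ± 0.11) and UQCRQ of complex III (0.90 ± 0.09) were higher, and COX6C of complex IV was lower (251 and 245 CPM in WT, 132 and 121 CPM in KO, -0.97 ± 0.13). Of 12 genes encoded by mitochondria 4 were higher, MT-ND2 (0.63 ± 0.09), MT-ND1 (0.50 ± 0.10), MT-CO2 (0.42 ± 0.12) and MT-CYB (0.28 ± 0.10), and 2 lower, MT-ND6 (-0.68 ± 0.11) and MT-CO1 (-0.34 ± 0.10). Their median of 0.10 turned to -0.07 under upper-quartile scaling, -0.09 with library totals and -0.06 without KO recovery replicate 1, each with 2 higher and 3 lower. Without WT recovery replicate 2 the counts were 2 and 2, without the low-count filter 7 and 2, with GC and length offsets 10 and 0 (median 0.85), and with the coding offsets 3 and 3 (0.03). With GC and length offsets MT-ND6 turned to 0.21 and MT-CO1 gave -0.01. MT-CO1 did not pass without KO recovery replicate 2 or WT recovery replicate 1 (-0.29 to -0.27). Without KO recovery replicate 1 or WT recovery replicate 2 neither MT-CO2 (0.15 to 0.37) nor MT-CYB (0.15 to 0.21) passed, and neither did so under the other scalings (0.23 to 0.25 and 0.09 to 0.11); MT-CYB did not pass with the coding offsets (0.18), with a mean count of at least 50 (0.19) or over coding genes alone (0.23).

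Of 12 nuclear-retained and snoRNA host long RNAs 7 were lower and 2 higher (median -0.47). MALAT1, a nuclear speckle RNA, was at 358 and 413 CPM in WT and 99.4 and 148 CPM in KO recovery (-1.64 ± 0.17), and NEAT1, the scaffold of paraspeckles, at 50.1 and 62.5 CPM and 15.6 and 19.99 CPM (-1.66 ± 0.15). The higher RNAs were SNHG15 (0.85 ± 0.12) and SNHG12 (0.32 ± 0.12), and SNHG12 did not pass without KO recovery replicate 2 or either WT recovery replicate (0.23 to 0.34), under DESeq2 (0.31), with GC and length offsets (0.26), with a mean count of at least 50 (0.23) or under the other scalings (0.13 to 0.15). Of 8 abundant non-polyadenylated RNAs 4 were higher and 0 lower; 1 was higher without KO recovery replicate 1 and 2 without either WT recovery replicate. Of 7 genes of metallothioneins and zinc, MTF1, the metal-responsive factor (1.05 ± 0.10), MT1X (0.71 ± 0.12) and SLC30A1 (0.71 ± 0.13) were higher and the importer SLC39A10 (-0.73 ± 0.08) and MT2A (-0.24 ± 0.09) lower. MT2A was 0.16 with GC and length offsets and did not pass without KO recovery replicate 2 (-0.19), without WT recovery replicate 1 (-0.17) or without the filter (-0.15).

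**Figure D3:**
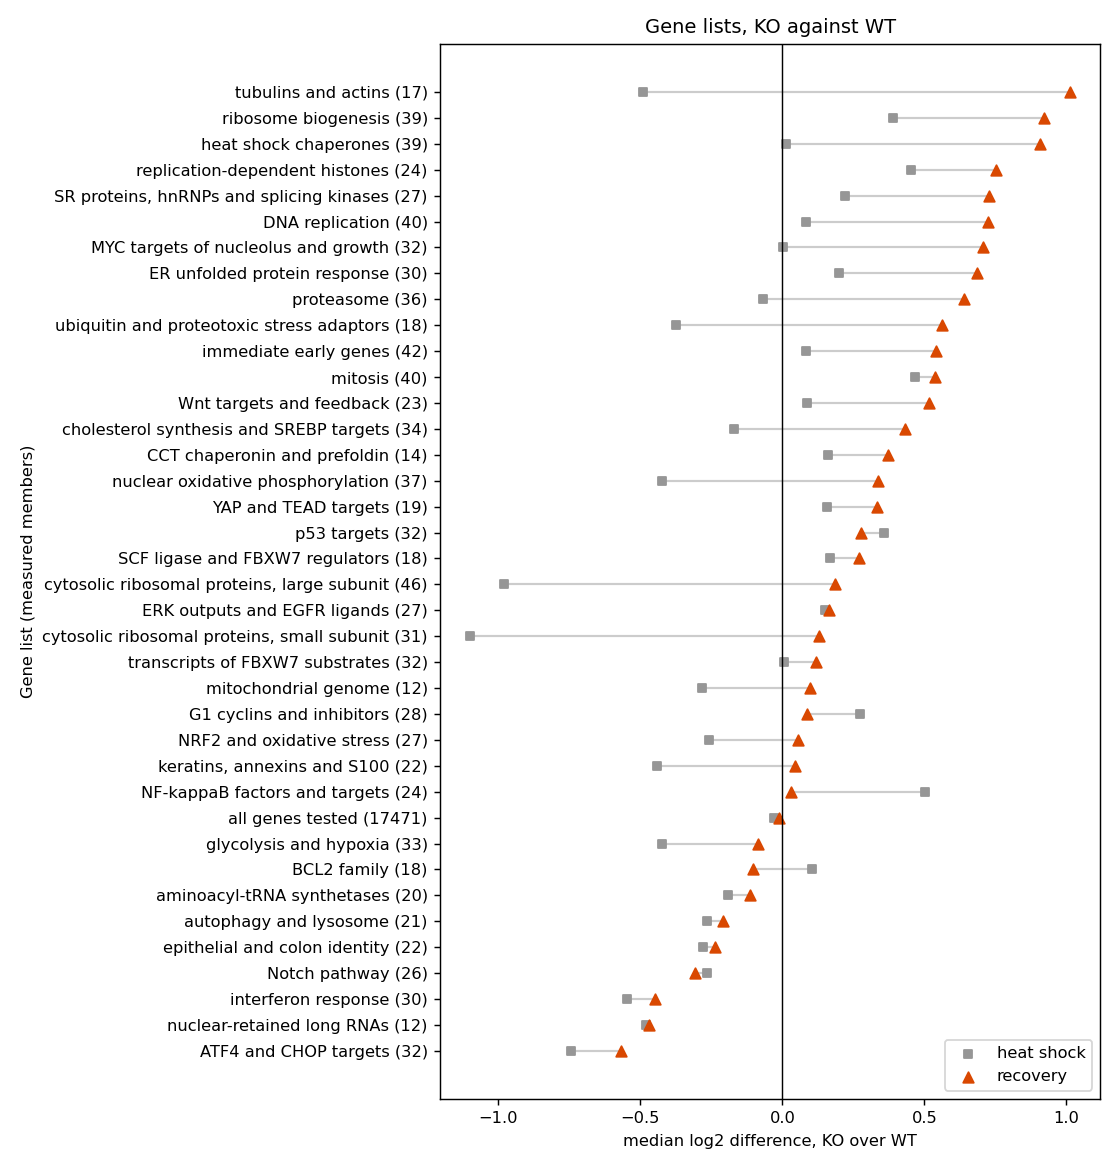
Median log2 difference of KO over WT (horizontal axis) in each gene list with at least 10 measured members and in all genes tested (vertical axis, number of measured members in brackets), at recovery (triangles) and at heat shock (squares). Tubulins and actins, ribosome biogenesis and heat shock chaperones had the highest medians at recovery (1.01, 0.92 and 0.91) and ATF4 and CHOP targets the lowest (-0.57).

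The line differences at recovery were set beside those at heat shock. The comparisons share no library, but their tests share the estimate of the spread. At heat shock 9706 genes (55.6%) passed. Of the 5562 genes higher in KO at recovery 1902 were higher at heat shock as well (34.2%, and 39.8% of the genes higher at heat shock), 1569 were lower and 2091 did not pass. Of the 5464 lower genes 1745 were lower at heat shock as well (31.9%, and 35.4% of those lower at heat shock), 1151 were higher and 2568 did not pass. The change of the line difference between the conditions passed for 9999 genes (57.2%), 5039 with a higher and 4960 with a lower difference at recovery, and 7440 of the 11026 genes called at recovery (67.5%) were among them.

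**Figure D4:**
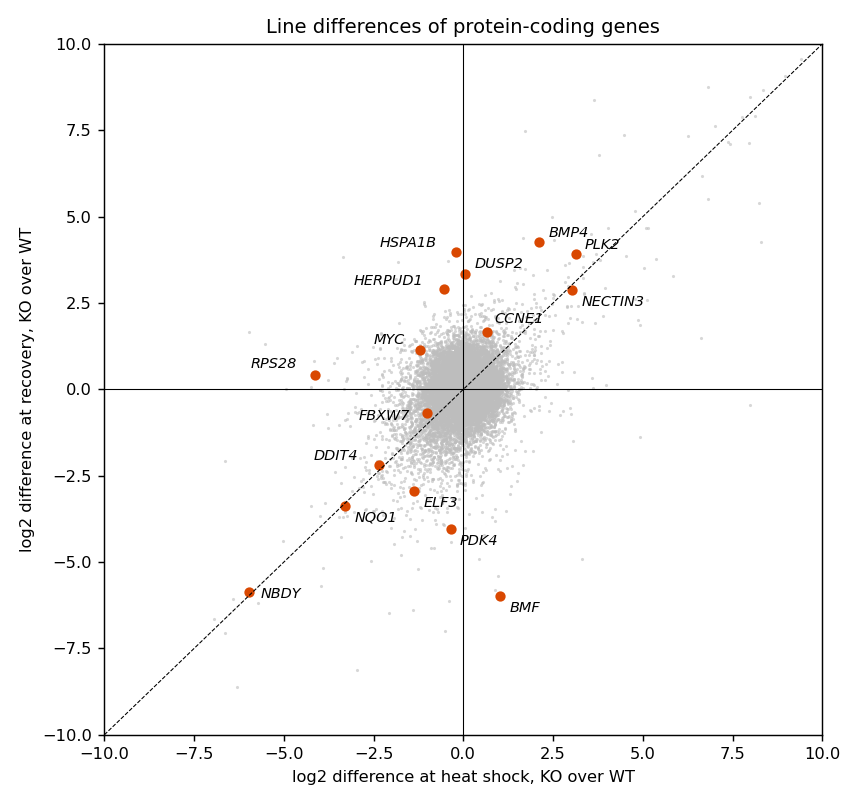
Log2 difference of KO over WT at recovery (vertical axis) against that at heat shock (horizontal axis) for 13259 protein-coding genes off the Y chromosome (1 point each); the dashed line marks equal differences. NQO1, NECTIN3 and NBDY lie near the line (NQO1 at -3.37 and -3.29), whereas HSPA1B, HERPUD1 and DUSP2 are high at recovery and near 0 or below at heat shock (HSPA1B at 3.97 and -0.21).

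The recovery differences came with technical features of the libraries whose part in them was not tested. Processed pseudogenes, copies of mRNAs without introns, were lower in KO for 637 of 820 measured (median -3.29). Their median level was 1.155 and 1.127 CPM in the WT recovery libraries and 0.152 to 0.227 CPM in the other 6 libraries. By their share of all counts the order differed: 1.17 and 1.02% in WT recovery, 0.865 and 0.817% in KO recovery, 0.638 and 0.987% in WT heat shock and 0.436 and 0.324% in KO heat shock, which was the lowest group. Of the 551 genes at least 10-fold lower in KO (3.15% of genes), 400 were processed pseudogenes and 83 were protein-coding; of 85 at least 10-fold higher (0.487%), 4 and 59 were. Over the 13267 protein-coding genes alone the fit called 4482 higher and 4338 lower. Coding genes of the naming rule that overlap or copy another gene went in both directions. ZNF90 (-5.21 ± 0.25), EDARADD, which overlaps the pseudogene ENO1P1 (-4.91 ± 0.24), and the near-copies EIF2S3B (-5.81 ± 0.45) and CSNK2A3 (-3.53 ± 0.29) were lower in KO at recovery. FAM166A overlaps TUBB4B on the other strand (3.203 ± 0.16), WDR38 overlaps RPL35 (1.32 ± 0.25), OVOL3 overlaps POLR2I (1.67 ± 0.28), TCP11L2 overlaps CKAP4 (-4.39 ± 0.19) and CAPN12 overlaps ACTN4 (-1.24 ± 0.20), so these values may hold reads of the neighbour.

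The line difference varied with transcript length, in opposite directions at recovery and at heat shock. Coding genes with a longest transcript under 600 bases had a median log2 difference of 0.38 at recovery and -0.46 at heat shock (61 genes), those of 600 to 1000 bases 0.27 and -0.47 (343 genes), those of 1000 to 2000 bases 0.17 and -0.23, those of 2000 to 4000 bases 0.10 and -0.04 and longer ones -0.06 and 0.09. With GC and length offsets fitted on all genes tested, processed pseudogenes included, the recovery medians of these 5 classes were 1.02, 0.77, 0.36, 0.14 and 0.07, a steeper trend; with the coding offsets they were 0.11, 0.03, 0.06, 0.08 and 0.06. The chaperone list gave 33 higher and 4 lower genes with the first and 29 and 4 with the second. Ribosome biogenesis gave 38 and 0, then 37 and 0, DNA replication 38 and 0, then 34 and 1 of 39, and ATF4 and CHOP targets 3 and 23, then 3 and 25.

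**Figure D5:**
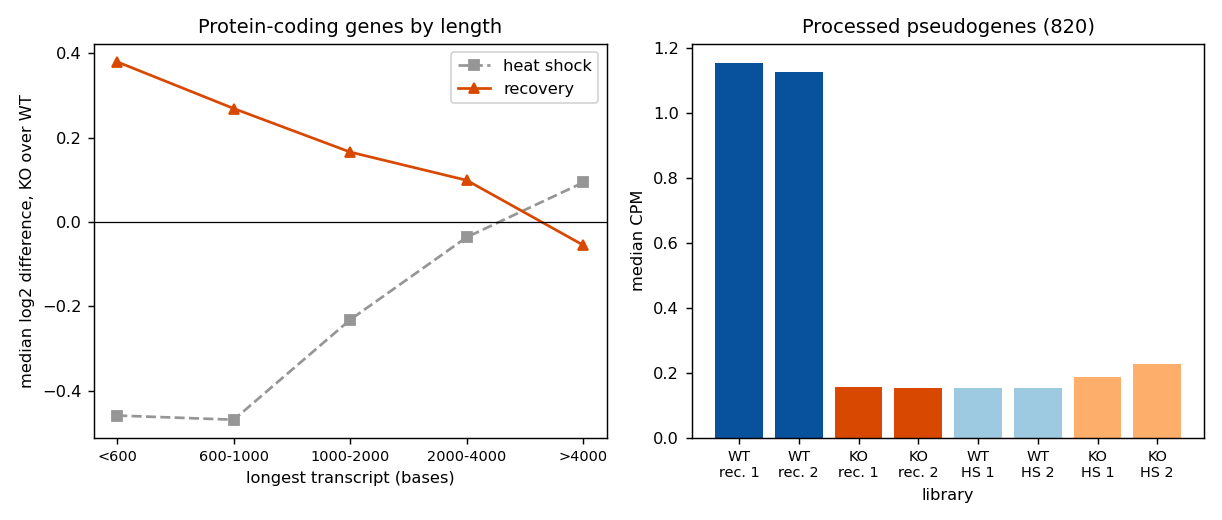
Left, median log2 difference of KO over WT (vertical axis) of protein-coding genes by the length of their longest transcript (horizontal axis, bases) at recovery (triangles) and heat shock (squares); the shortest class was at 0.38 and -0.46. Right, median CPM of 820 processed pseudogenes in each library (bars from 0); the WT recovery bars stand at 1.155 and 1.127 CPM and the others at 0.152 to 0.227 CPM.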

How the data were processed

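RNA-seq measured HCT116 libraries of 2 lines. The authors deposited whole-number read counts per gene in 4 tables, each with a recovery and a heat shock library of 1 line; per the submitters' processing notes CASAVA, TopHat and hg19 were used, and the sources used here name neither versions, counter nor strand setting. The authors' deposited log2 fold change was used only to see which of the 2 columns was its numerator. Per the labels' protocols the libraries were made with a dUTP strand-specific method. No column of samples was left unused (0). A missing count was read as 0.

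From the counts, genes passing edgeR's (4.0.16, R 4.3.3) filterByExpr were scaled by TMM and tested with its quasi-likelihood F test over all 8 libraries (4 residual degrees of freedom), with Benjamini-Hochberg adjustment over 17471 genes. CPM were computed on TMM-scaled library sizes. Names and coordinates came from GENCODE 29 (GRCh38), which matched 92.7% of identifiers with reads, and promoters from RefSeq. On simulated data of this comparison (17471 genes), with 100 genes changed at each size, 95% of 2-fold and 100% of 4-fold changes were recovered. In the real data 63.1% of genes passed. Recovery and scaling when most genes differ were therefore not tested by the simulation. DESeq2 1.42.0 was an alternative.

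The comparison, the 42 gene lists and the tests were chosen with earlier results of these data known. Named are the 15 coding genes with the largest difference in each direction (mean count at least 50, no overlap), 10 more at 100 CPM or more, 10 by change from heat shock, 6 per list by lowest p, every list member of a direction with 5 or fewer, and FBXW7, HSF1, HSF2, MYC, JUN and CCNE1. Y-linked genes and small RNA classes were only counted, and some genes that the rule names are not reported here.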

Additional observations from a re-analysis of the deposited data

Results flagged for a closer look

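The difference between KO and WT changed between heat shock and recovery in 5039 genes that had a higher and 4960 that had a lower KO over WT difference at recovery (edgeR's quasi-likelihood test of the interaction, adjusted p under 0.05). Of the 275 genes named above, 220 were among them. The values in brackets are the log2 difference of KO over WT at recovery minus that at heat shock, and no cause of them was tested.

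The order of the lines was reversed, with KO lower at heat shock and higher at recovery in 41 named genes. OVOL3 (7.64), WDR38 (6.84), FAM166A (5.07), RPS28 (4.52), HERPUD1 (3.46), RPL41 (3.25) and ZFAND2A (2.96) had this pattern. SERPINH1 (2.77), EGR1 (2.69), DNAJB1 (2.595), SRSF7 (2.38), MYC (2.35), TUBA1B (2.31) and TUBA1C (2.15) were of the same kind. CREBBP (2.08), SERTAD1 (2.004), UHRF1 (2.002), HSPA8 (1.88), NSDHL (1.87), FKBP4 (1.73) and RPS15 (1.73) belonged here too. CHAC1 (1.72), HSPA5 (1.67), SDHA (1.57), UQCRQ (1.52), ISG15 (1.46), UBB (1.43) and MTF1 (1.33) followed. MT1X (1.33), VCP (1.32), UFD1 (1.31), STUB1 (1.31), HSBP1 (1.22), NEDD8 (1.197) and CCT5 (1.01) came next. SNHG12 (0.97), SLC1A5 (0.86), CTSD (0.85), MT-CO2 (0.77), HLA-C (0.65) and MT-CYB (0.64) were also in this set.

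KO was higher at recovery without having passed at heat shock in 50 named genes. HSPA1B (4.18), HSPA1A (4.14), DUSP2 (3.301), BAG3 (2.46), TUBB4B (2.397), PPRC1 (2.25) and URB2 (2.16) had this pattern. KEAP1 (2.01), ID2 (1.95), NOP56 (1.87), AMOTL2 (1.85), RRS1 (1.85), BYSL (1.82) and PLK1 (1.73) were of the same kind. EPHA2 (1.64), AEN (1.603), HSPH1 (1.52), TRAF2 (1.52), USP36 (1.48), STIP1 (1.43) and FEN1 (1.37) belonged here too. TRA2B (1.29), FOSL1 (1.27), CDC20 (1.25), ATF5 (1.23), TUBB (1.22), SRSF2 (1.16) and BID (1.13) followed. FARSA (1.09), POLR1B (1.05), NPLOC4 (0.99), ORC1 (0.98), PSMD7 (0.96), SNHG15 (0.95) and CCT7 (0.93) came next. CCNF (0.92), CCND1 (0.89), EP300 (0.89), FDXR (0.84), SHMT2 (0.80), NFKBIB (0.79) and RPL11 (0.67) were also in this set. KRT19 (0.58), MAML1 (0.57), BAX (0.55), CTSL (0.53), NFKB1 (0.47), HSP90AB1 (0.46) and HSP90AA1 (0.44) moved likewise. MCL1 (0.39) had this pattern.

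KO was higher in both conditions and by more at recovery in 37 named genes. BMP4 (2.15), TUBB2A (2.11), DNAJA1 (2.02), GRWD1 (1.95), CYR61 (1.71), CDC25A (1.67) and DNAJB9 (1.66) had this pattern. DKK1 (1.55), ID3 (1.5003), JAG1 (1.49), NOP2 (1.31), XBP1 (1.26), SLC2A1 (1.22) and MRTO4 (1.19) were of the same kind. MCM10 (1.16), MANF (1.13), CDC6 (1.11), CCNE1 (0.99), PGD (0.94), AXIN2 (0.91) and PSMC5 (0.89) belonged here too. CCNB1 (0.87), INSIG1 (0.80), DNAJC3 (0.79), PLK2 (0.78), CLSPN (0.72), PSMD11 (0.61) and E2F8 (0.57) followed. AURKA (0.55), CUL1 (0.53), HBEGF (0.51), TFRC (0.50), WNT16 (0.48), UBE2C (0.46) and CHORDC1 (0.44) came next. TCP1 (0.37) and HSPD1 (0.31) were also in this set.

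KO was higher in both conditions and by less at recovery, in 1 named gene, SIRT1 (-0.47).

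The order was reversed the other way, with KO higher at heat shock and lower at recovery in 17 named genes. CSNK2A3 (-4.71), CAPN12 (-3.39), BIRC3 (-2.83), ERO1A (-1.89), FZD7 (-1.69), ERO1B (-1.62) and CENPE (-1.54) had this pattern. KDM3A (-1.49), ASPM (-1.35), RBPJ (-1.19), SLC39A10 (-1.12), HSF2 (-1.11), SRPK2 (-1.09) and NT5E (-0.97) were of the same kind. ST13 (-0.77), USP28 (-0.72) and RPL15 (-0.53) belonged here too.

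KO was lower at recovery without having passed at heat shock in 23 named genes. BMF (-7.01), EIF2S3B (-6.69), EDARADD (-5.34), ZNF469 (-4.07), PDK4 (-3.68), ANGPTL4 (-3.31) and WNT6 (-2.26) had this pattern. IFIT2 (-2.08), P4HA1 (-1.54), DDX58 (-1.34), MALAT1 (-1.32), RBL2 (-1.23), HSF4 (-1.22) and ATF6 (-1.09) were of the same kind. ELOVL6 (-0.99), MAP1LC3B (-0.98), HIST1H2AC (-0.92), PERP (-0.83), NFKB2 (-0.67), PSMG2 (-0.63) and ERN1 (-0.59) belonged here too. FKBP5 (-0.59) and HK2 (-0.33) followed.

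KO was lower in both conditions and by more at recovery in 36 named genes. ZNF90 (-3.95), TCP11L2 (-3.09), FBXO32 (-2.54), SESN3 (-2.44), NFATC2 (-2.196), GPR173 (-1.78) and MAML3 (-1.62) had this pattern. BNIP3L (-1.599), ELF3 (-1.56), SYT1 (-1.53), ESRP1 (-1.43), RHOBTB3 (-1.202), DEPTOR (-1.18) and H1F0 (-1.18) were of the same kind. NEAT1 (-1.14), NBR1 (-1.12), IFIH1 (-1.1000), LIMA1 (-1.05), ULK1 (-0.78), GABARAPL1 (-0.76) and CAT (-0.67) belonged here too. NOTCH3 (-0.64), CDH1 (-0.64), ERBB3 (-0.64), BCL3 (-0.63), MAML2 (-0.59), SLC7A11 (-0.58) and ABCC2 (-0.55) followed. SQLE (-0.55), HLA-E (-0.54), ETV5 (-0.53), S100A14 (-0.53), CLDN3 (-0.52), ANXA1 (-0.51) and MT-ND6 (-0.41) came next. SAT1 (-0.29) was also in this set.

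KO was lower in both conditions and by less at recovery in 13 named genes. RPL17 (2.28), RPLP0 (1.73), COX6C (1.17), BOP1 (1.12), RPL8 (0.98), PCK2 (0.97) and RPL30 (0.85) had this pattern. JUN (0.68), ALDOC (0.61), RPS25 (0.50), SARS (0.47), MT2A (0.44) and TUBA1A (0.40) were of the same kind.

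KO was lower at heat shock and did not pass at recovery in 2 named genes. CD68 (0.73) and HSF1 (0.71) had this pattern.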

How the results depend on the processing

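The numbers of genes that passed stayed within 1.5 times in each of 3 comparisons under all alternatives but 2. With the coding offsets, over 13267 genes, 3250 had a lower line difference at recovery than at heat shock. Against a minimum fold change of 1.5, 2014 genes were higher and 2738 lower in KO at recovery, 1278 and 1600 at heat shock, and 2571 and 2527 for the change between the conditions. Leaving out 1 library at a time gave 4513 to 5996 higher and 4499 to 6056 lower genes at recovery, 3973 to 4748 and 3865 to 5266 at heat shock, and 4525 to 5489 and 4106 to 5166 for the change; a lone library is then assumed to vary like the other groups. With library totals the higher share of calls fell to 36.7% at recovery and 35.6% for the change, from 50.4% in both. With DESeq2 5025 and 4849 genes passed at recovery. Coding genes alone, coding genes with no pseudogene named after them (4034 higher and 3943 lower), and the coding offsets were alternatives chosen after seeing the data.

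The fit with the replicate number as a block gave 5550 higher and 5463 lower genes at recovery. Deviations of same-numbered KO and WT libraries from their group means correlated at 0.0304 at recovery and -0.0489 at heat shock. No such value was computed between the recovery and heat shock libraries of a line. Whether same-numbered libraries of a line share a culture or batch was therefore not tested, and the change between the conditions was fitted without pairing them.

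Of 275 named genes 207 had the same direction and call in each of the 21 alternatives that tested them, and 241 in each but the minimum fold change; 5 alternatives tested 223 to 274 of them. For 8 the direction turned. HSF1 gave 0.0461 without the low-count filter and -0.1102 to 0.0326 without 1 library. With the coding offsets CENPE gave 0.0289, ASPM 0.0567 and ISG15 -0.0321. CD68 gave -0.1488 with the coding offsets, -0.13 with library totals, -0.0306 at a mean count of at least 50, -0.10 with upper-quartile scaling and -0.10 to 0.228 without 1 library (-0.00 without WT recovery replicate 2). With GC and length offsets, without or with the replicate block, RPL17 gave 0.12, ASPM 0.0311 and 0.0288, MT-ND6 0.21 and MT2A 0.16. The cause was not tested.

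Depth limits genes under about 3 counts per group, for which ratios carry wide intervals. The knockout and other differences between the 2 lines cannot be told apart.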
